A study of Macaca mulatta with 30 samples.

Results

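The 10 genes described here are 6 Wnt ligands (WNT2, WNT2B, WNT5A, WNT5B, WNT7B and WNT11), the receptor FZD8 and 3 genes that respond to Wnt signals (LEF1, AXIN2 and WIF1), in fetal rhesus macaque lung and hippocampus after maternal steroid injection. They were chosen by name with earlier results from these libraries in view, among them the early lung difference between the clinical drug and control. Of the 10, 6 were matched by symbol to an identifier in both count tables, which held 30246 lung and 32386 hippocampal identifiers. These 6 were WNT2B (ENSMMUG00000007765), WNT5B (ENSMMUG00000001325), WNT7B (ENSMMUG00000000180), FZD8 (ENSMMUG00000001694), LEF1 (ENSMMUG00000023256) and WIF1 (ENSMMUG00000016887). WNT2, WNT5A, WNT11 and AXIN2 were not matched and were not analysed here.

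Wnt ligands are secreted lipid-modified proteins that bind Frizzled receptors on nearby cells. In the canonical branch the receptor and its LRP co-receptor stop the destruction of beta-catenin, which then enters the nucleus and, with TCF and LEF factors, turns on target genes, several of which encode inhibitors of the same pathway. Another branch acts through ROR receptors and planar polarity proteins without beta-catenin. In the developing lung, Wnt signals pass between epithelium and mesenchyme during branching and growth, and in the embryo Wnt ligands from the cortical hem are needed for the hippocampus to form.

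RNA was sequenced from whole lung of 15 fetuses in 5 groups of 3 and from hippocampus of 15 fetuses in 3 groups of 5, all wild type rhesus macaques (Macaca mulatta) whose mothers were injected in the muscle. Lung came from fetuses of mothers given saline as control, given the clinical drug (Celestone, betamethasone phosphate plus betamethasone acetate) at 0.25 mg/kg after 4 h or 5 days, or given betamethasone acetate alone (Beta-Ac) at 0.125 mg/kg after 6 h or 5 days. The 3 hippocampal groups were control, clinical drug and Beta-Ac, all at 5 days. The labels give 124 to 130 days of gestation for the lung and 130 to 136 days for the hippocampus, and no interval for the lung controls. By animal number, 9 fetuses gave both tissues, and each has a higher age in its hippocampal label than the lung range, so the ranges do not show that the lungs came from younger animals. Total counts per library ran from 14073002 (15-85) to 45033799 (15-81) in lung, with both ends in the 4 h clinical drug group, and from 18280762 to 29301058 in hippocampus. The question behind the comparisons was whether Beta-Ac alone, at the lower dose, leaves out effects of the clinical drug.

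Levels are in CPM, the reads of a gene scaled to library size, with library sizes adjusted by the trimmed mean of M-values (TMM) separately in each tissue, so no test was run between lung and hippocampus. Group values are means ± SD. Differences are log2 fold changes from edgeR's quasi-likelihood F-test with 1 fit per tissue, over the genes left after a filter on reads (17644 in lung, 17390 in hippocampus), which kept a gene where no fewer than 3 lung libraries, or 5 hippocampal ones, held 7 reads or more. A gene is called different at a fold of at least 1.5, an unadjusted p under 0.05, and an adjusted p under 0.1 over all genes tested, by Storey's q in lung and by Benjamini-Hochberg in hippocampus. All 6 matched genes passed the filter on reads in both tissues. In whole tissue, fewer cells of a type and less RNA per cell cannot be told apart.

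The surfactant genes SFTPC (2708 to 9645 CPM) and SFTPB (3023 to 6186 CPM) marked every lung library, and SLC17A7, a vesicular glutamate transporter of excitatory neurons, stood at 509 to 955 CPM in every hippocampal library. In the hippocampus SFTPC was at most 0.428 CPM, and the neuronal factor NEUROD2 was at 0 in the lung. Among the hippocampal libraries the control CTL212 stood apart. Its choroid plexus markers (5 of 7 listed genes matched, none at 0) summed to 1108 CPM, with CLIC6 at 421 CPM, FOLR1 at 326 CPM, KL at 182 CPM and OTX2 at 156 CPM, while the other 14 libraries had sums of 8.36 to 29.8 CPM. Its meningeal markers summed to 711 CPM beside 44.1 to 437 CPM elsewhere. Hippocampal results that rest on this control are therefore given with and without it. Libraries CTL092 and BAC235 differed from the other 13 in the share of their most abundant gene, 0.381% and 0.405% of counts against 1.58% to 3.77%.

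Hippocampal groups follow the sample titles. The treatment and dose fields name the opposite drugs, with the clinical drug and 0.25 mg/kg for animals titled BAC and Beta-Ac and 0.125 mg/kg for animals titled CEL. The 6 treated animals that also gave lung libraries carry lung labels that match the titles. Were the fields right, the drug names would swap in every hippocampal sentence.

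Early after the clinical drug, the lung had less of the receptor FZD8 than control lung in all 22 alternative settings. The ligand WNT7B was also lower, a call lost in 5 of the 22, and the ligand WNT5B was higher on average, with overlap between the groups and a call lost in 16. Group means of FZD8 and WNT7B stood near the control means 5 days after either drug. The mean of FZD8 was intermediate and that of WNT2B the lowest of the 5 groups 6 h after Beta-Ac, and neither difference against control passed the thresholds. Against control, 3 of the 6 genes were called 4 h after the clinical drug, beside 7.4% of all genes. That comparison was among the results the genes were selected on, so its values are a description and nothing is read from the count.

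**Figure D1:**
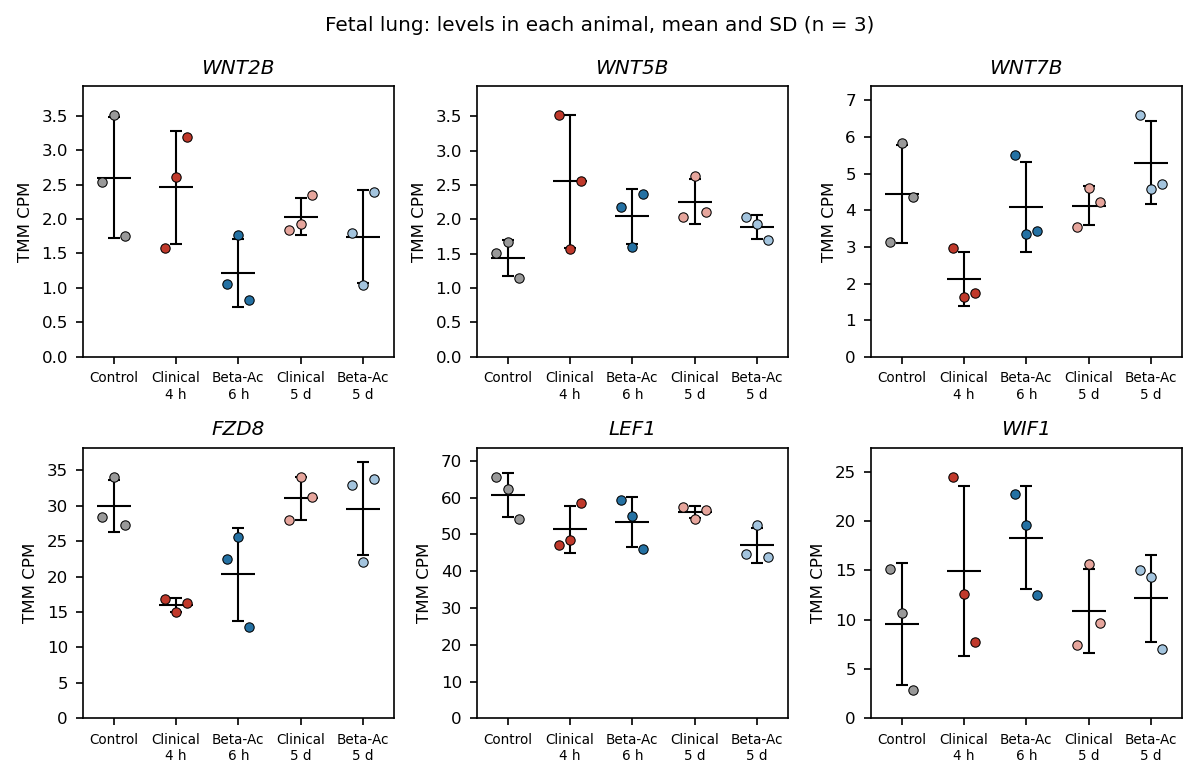
TMM CPM (vertical axis) of WNT2B, WNT5B, WNT7B, FZD8, LEF1 and WIF1 in each fetal lung, by group (horizontal axis). Points are animals (n = 3), long bars are means and whiskers are SD; the 3 lungs taken 4 h after the clinical drug lie below all 3 controls for FZD8 and WNT7B.

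WNT7B is a ligand made by lung epithelium that promotes growth of the mesenchyme around it. In control lungs WNT7B was at 5.83 in 15-92, 3.15 in 15-101 and 4.37 in 16-113, in CPM. At 4 h after the clinical drug it was at 2.96 in 15-81, 1.64 in 15-85 and 1.75 in 15-97. All 3 of these lungs were below every control, although 15-81 came within reach of the lowest control, 15-101. WNT7B thus had a log2 fold change of -1.04 (SE 0.31), past the thresholds. It was -0.91 without 15-85, -0.82 without the control 15-92, -0.93 without 15-97, -1.05 without the control 16-113 and -1.05 with only these groups in the fit, each short of the threshold on q. Counts behind these levels were low, from 22 to 128 reads in the lungs taken at 4 h.

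WNT7B 6 h after Beta-Ac was at 5.52 in 16-123, 3.36 in 16-131 and 3.42 in 17-254, all within the control range. The lungs taken 5 days after the clinical drug gave 3.55 in 16-115, 4.62 in 16-120 and 4.22 in 16-126, and those 5 days after Beta-Ac 6.60 in 16-128, 4.59 in 16-130 and 4.72 in 16-136. In order, the group means were 2.12 ± 0.733 CPM (clinical drug, 4 h), 4.10 ± 1.23 (Beta-Ac, 6 h), 4.13 ± 0.540 (clinical drug, 5 days), 4.45 ± 1.34 (control) and 5.30 ± 1.13 (Beta-Ac, 5 days). Only the 4 h group was clear of its neighbour in that order, and the ranges of the other 4 overlapped.

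WNT5B is a ligand of the branch that acts without beta-catenin. Control lungs had WNT5B at 1.67 in 15-92, 1.51 in 15-101 and 1.15 in 16-113, in CPM. The lungs 4 h after the clinical drug had 3.52 in 15-81, 1.57 in 15-85 and 2.57 in 15-97. Animal 15-81 was the highest of all 15 lungs and 15-85 lay inside the control range, so the groups overlapped. WNT5B had a log2 fold change of 0.85 (SE 0.31), past the thresholds. The call was lost in 16 of 22 alternative settings, among them fits without 15-81, where the value was 0.52, without 15-97 (0.84), without the control 15-92 (0.95), without the control 15-101 (0.88) and without the control 16-113 (0.71). It was also lost without 16-115, 16-120, 16-123, 16-126, 16-128, 16-130, 16-131 or 16-136, lungs of other groups in the same fit, with values of 0.83 to 0.85.

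Levels of WNT5B in the other groups were 2.18 in 16-123, 1.59 in 16-131 and 2.36 in 17-254 (Beta-Ac, 6 h), 2.03 in 16-115, 2.63 in 16-120 and 2.11 in 16-126 (clinical drug, 5 days) and 2.03 in 16-128, 1.93 in 16-130 and 1.70 in 16-136 (Beta-Ac, 5 days). The controls had the lowest mean, 1.44 ± 0.261 CPM, followed by Beta-Ac at 5 days (1.89 ± 0.172), Beta-Ac at 6 h (2.04 ± 0.402), the clinical drug at 5 days (2.26 ± 0.326) and the clinical drug at 4 h (2.55 ± 0.975). Every lung in both 5 day groups was above every control, though only just in the Beta-Ac group. Neighbouring treated groups in this order overlapped. In edgeR's fit the log2 fold change of WNT5B 5 days after the clinical drug was 0.65 (SE 0.31), with q = 0.931, and it was not called.

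WNT2B is a ligand that, with WNT2, sets up the lung field in the embryonic foregut. Its CPM was 3.51 in 15-92, 2.53 in 15-101 and 1.76 in 16-113 in controls. At 6 h after Beta-Ac it was 1.06 in 16-123, 1.77 in 16-131 and 0.820 in 17-254. Lungs 16-123 and 17-254 were below all controls, and 16-131 was level with the lowest control, 16-113. Its difference, a log2 fold change of -1.08 (SE 0.40, edgeR q = 0.275), was not called. Means ran from 1.22 ± 0.493 CPM in that group through Beta-Ac at 5 days (1.75 ± 0.679), the clinical drug at 5 days (2.04 ± 0.268) and the clinical drug at 4 h (2.46 ± 0.820) to control (2.60 ± 0.878), and each neighbour in the order overlapped the next.

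FZD8 is a Frizzled receptor that binds Wnt ligands at the cell surface. Control lungs had 34.1 in 15-92, 28.4 in 15-101 and 27.3 in 16-113, in CPM. Lungs 4 h after the clinical drug had 16.8 in 15-81, 15.0 in 15-85 and 16.3 in 15-97, close together and far below the lowest control. FZD8 fell by a log2 fold change of -0.90 (SE 0.22), a fall that was called in all 22 alternative settings with values from -0.96 to -0.81.

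FZD8 6 h after Beta-Ac was at 22.5 in 16-123, 25.5 in 16-131 and 12.9 in 17-254. All 3 animals were below the lowest control and they were widely spread, with 17-254 below every lung of the 4 h group. This difference, a log2 fold change of -0.56 (SE 0.22, edgeR q = 0.281), fell short of the thresholds. It ran from -0.77 to -0.32 over the 22 alternative settings and was called in none. FZD8 ranged from 27.9 to 34.0 CPM 5 days after the clinical drug and from 22.0 to 33.8 CPM 5 days after Beta-Ac, both overlapping control. Means in order were 16.0 ± 0.975 CPM (clinical drug, 4 h), 20.3 ± 6.62 (Beta-Ac, 6 h), 29.6 ± 6.55 (Beta-Ac, 5 days), 29.9 ± 3.69 (control) and 31.1 ± 3.04 (clinical drug, 5 days), and each group overlapped its neighbour.

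LEF1, a nuclear partner of beta-catenin that is also a target of the pathway, was called in none of the lung comparisons by edgeR or DESeq2. Control lungs were at 62.2 in 15-92, 65.7 in 15-101 and 54.2 in 16-113, in CPM. The lowest group mean was found 5 days after Beta-Ac, with 44.6 in 16-128, 52.5 in 16-130 and 43.8 in 16-136. Those 3 lungs were all below the lowest control. Sums of T cell, endothelial and lymphatic endothelial markers in that group were also below control, and alveolar type 2 sums above it, as given below. With a log2 fold change of -0.37 (SE 0.12, edgeR q = 0.665), the difference was under the fold threshold. The means rose from 47.0 ± 4.81 CPM in that group through 51.4 ± 6.33 (clinical drug, 4 h), 53.4 ± 6.81 (Beta-Ac, 6 h) and 56.1 ± 1.73 (clinical drug, 5 days) to 60.7 ± 5.90 in control, with overlap between neighbours.

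WIF1 is a secreted protein that binds Wnt ligands and keeps them from their receptors. Its level differed widely between animals of the same group. Control lungs had 10.7 in 15-92, 15.1 in 15-101 and 2.91 in 16-113, in CPM, and lungs 4 h after the clinical drug had 24.5 in 15-81, 12.6 in 15-85 and 7.70 in 15-97. Animals 16-113 and 15-81 were the lowest and highest of all 15 lungs. At 6 h after Beta-Ac the levels were 22.7 in 16-123, 19.6 in 16-131 and 12.5 in 17-254, a log2 fold change of 0.94 (SE 0.53, edgeR q = 0.388) that was not called. That value ran from 0.50 to 1.44 over the 22 alternative settings and was called in none. Group means ran from 9.58 ± 6.19 CPM in control through 10.9 ± 4.25 (clinical drug, 5 days), 12.2 ± 4.41 (Beta-Ac, 5 days) and 14.9 ± 8.66 (clinical drug, 4 h) to 18.3 ± 5.22 (Beta-Ac, 6 h), all overlapping.

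The other lung comparisons set these levels against each other. For Beta-Ac at 6 h against control, edgeR called 0 of the 6 genes, beside 0.442% of all genes, with 2 at an unadjusted p under 0.05 (WNT2B and FZD8) and 0 by DESeq2. That share was 78 genes, and it was 9 to 211 with 1 library left out, 19 with only these groups in the fit and 247 by DESeq2. For the clinical drug at 5 days, edgeR called 0 of 6, beside 0% of all genes, with 0 at an unadjusted p under 0.05 and 0 by DESeq2. Over all genes in that comparison, 775 were at an unadjusted p under 0.05 and 16 were called by DESeq2. For Beta-Ac at 5 days, edgeR called 0 of 6, beside 0.00567% of all genes, with LEF1 alone at an unadjusted p under 0.05 and 0 by DESeq2. All 4 of these comparisons share the same 3 control lungs.

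Between the drugs at the early times, WNT7B was lower after the clinical drug, with a log2 fold change of -0.91 (SE 0.31). It was the 1 gene of 6 that was called, beside 6.74% of all genes (1189, with 667 to 1971 when 1 library was left out and 314 with only these groups in the fit). Its 4 h lungs are those the genes were chosen on, so nothing is read from the call. The call was lost without 15-85 (-0.77), 15-97 (-0.80) or 16-123 (-0.65), with no filter, with Benjamini-Hochberg in place of Storey and with only these groups in the fit (-0.92). WNT2B was higher after the clinical drug by a log2 fold change of 0.98 (SE 0.40), which was not called, and was called without 15-81 (1.23) or without 16-131 (1.36). The FZD8 difference was -0.34 (SE 0.22), also not called. It ran from -0.58 to -0.14 over the 22 alternative settings and was called in none. Drug, dose and interval differ together between these groups and cannot be told apart. Animal numbers split with them, since those of all 3 lungs at 4 h begin with 15. Those of the lungs at 6 h, and of all lungs at 5 days, begin with 16 or 17, and the controls hold both 15 and 16. The part of this split in the differences was not tested. At 5 days, where the interval was matched, edgeR called 0 of 6 genes between the drugs, beside 0% of all genes, with 0 of the 6 at an unadjusted p under 0.05 and 0 by DESeq2. LEF1, higher in all 3 lungs after the clinical drug, had a log2 fold change of 0.26 (SE 0.12, edgeR q = 0.999).

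Between the times after the clinical drug, FZD8 (-0.95, SE 0.22) and WNT7B (-0.93, SE 0.31) were lower at 4 h than at 5 days as log2 fold changes, and every lung at 4 h was below every lung at 5 days. These were 2 of 6 genes, beside 10.4% of all genes, a contrast that shares its 4 h lungs with the choice of the genes. The WNT7B call was lost without 15-85 (-0.80), 15-97 (-0.82), 16-120 (-0.84) or 16-126 (-0.93), and with no filter (-0.94). Between the times after Beta-Ac, edgeR called 0 of 6 genes, beside 0.261% of all genes, with FZD8 alone at an unadjusted p under 0.05 (log2 fold change -0.54, SE 0.22, edgeR q = 0.478) and 0 by DESeq2. The FZD8 value ran from -0.76 to -0.30 over the 22 alternative settings and was called in none. That share of all genes was 46 genes. It was 5 to 98 with 1 library left out and 9 with only these groups in the fit.

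Other parts of the Wnt pathway were taken from 9 lists of 90 genes, of which 72 were matched and 64 tested in lung. At 4 h after the clinical drug, edgeR called 3 of the 64 higher and 7 lower than control, 15.6% beside 7.4% of all genes. The median log2 fold change was -0.10, beside 0.02 over all genes tested. The lists were chosen with earlier results of these data known, and no set test was run. Nothing is therefore read from the share or the median. By role, the lower genes were 2 of 6 further targets, 2 of 7 planar polarity genes, 1 of 11 receptors, 1 of 7 R-spondin genes and 1 of 10 nuclear factors. The higher genes were 1 of 4 further ligands, 1 of 8 secreted inhibitors and 1 of 10 nuclear factors. Genes induced at 4 h included a co-repressor, a ligand and a secreted inhibitor, and those suppressed included targets of the canonical branch, planar polarity genes and an R-spondin receptor.

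TLE4, a co-repressor that binds TCF and LEF factors, was at 59.5 in 15-92, 46.3 in 15-101 and 55.8 in 16-113 in controls, in CPM. At 4 h after the clinical drug it was at 149 in 15-81, 87.5 in 15-85 and 122 in 15-97, so that every treated lung was above every control. TLE4 rose by a log2 fold change of 1.15 (SE 0.16, edgeR q = 0.000502). WNT9A, another ligand, was at 5.83 in 15-92, 5.48 in 15-101 and 4.77 in 16-113 in controls and at 12.6 in 15-81, 9.65 in 15-85 and 14.5 in 15-97 at 4 h after the clinical drug. These groups did not overlap, and the log2 fold change was 1.19 (SE 0.26, edgeR q = 0.011).

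FRZB, a secreted protein that binds Wnt ligands, was at 26.2 in 15-92, 19.2 in 15-101 and 18.3 in 16-113 in controls and 35.2 in 15-81, 31.0 in 15-85 and 45.6 in 15-97 at 4 h after the clinical drug, in CPM. All 3 treated lungs were above all controls. FRZB rose by a log2 fold change of 0.81 (SE 0.25, edgeR q = 0.0489). The call was lost without 15-97 (0.63), without the control 15-101 (0.75) and without the control 16-113 (0.71).

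The targets CCND1 and NKD1 fell. CCND1, the cyclin D1 of the cell cycle, was at 163 in 15-92, 144 in 15-101 and 184 in 16-113 in controls and 62.8 in 15-81, 93.5 in 15-85 and 90.4 in 15-97 at 4 h after the clinical drug, in CPM. The highest treated lung was far under the lowest control, and the log2 fold change was -0.998 (SE 0.18, edgeR q = 0.00349). NKD1, which binds Dishevelled and dampens the signal, was at 82.0 in 15-92, 68.8 in 15-101 and 69.9 in 16-113 in controls and 52.6 in 15-81, 22.6 in 15-85 and 51.1 in 15-97 at 4 h. The treated lungs were all below control, 15-85 by the most. Its log2 fold change was -0.80 (SE 0.23, edgeR q = 0.037), and the call was lost without 15-85 (-0.52), without the control 15-92 (-0.73) and with only these groups in the fit (-0.81, edgeR q = 0.148).

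LGR4, a receptor for R-spondins, which strengthen Wnt signals, was at 64.2 in 15-92, 72.2 in 15-101 and 61.4 in 16-113 in controls and 39.9 in 15-81, 32.7 in 15-85 and 44.6 in 15-97 at 4 h after the clinical drug, in CPM. For LGR4 the log2 fold change was -0.75 (SE 0.16, edgeR q = 0.00868). PRICKLE2, a planar polarity protein, was at 108 in 15-92, 110 in 15-101 and 97.1 in 16-113 and 59.4 in 15-81, 57.1 in 15-85 and 65.2 in 15-97 in the same groups. Neither gene's groups overlapped, and both were tight within each group. For PRICKLE2 the log2 fold change was -0.79 (SE 0.088, edgeR q = 8.95e-05).

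**Figure D2:**
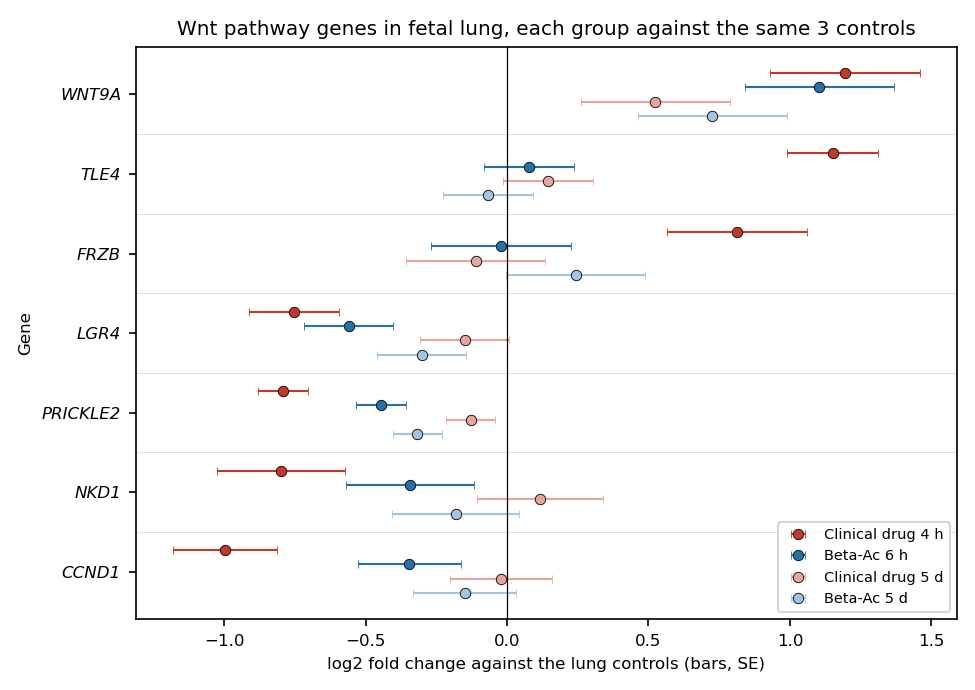
Log2 fold changes (horizontal axis) of 7 Wnt pathway genes (vertical axis) against the same 3 control lungs, for each drug and interval. Points are edgeR estimates and bars are SE; at 4 h after the clinical drug WNT9A, TLE4 and FRZB lie above 0 and LGR4, PRICKLE2, NKD1 and CCND1 below 0.

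At 6 h after Beta-Ac, edgeR called 0 of the 64 pathway genes against control, beside 0.442% of all genes. At an unadjusted p under 0.05 were 14 of the 64, beside 11.5% of all genes, and DESeq2 called 2 of the 64 and 247 of all genes. The edgeR count was 1 without 16-123 and 4 without 16-131, and the median log2 fold change of the list was -0.04, beside 0.02 over all genes. Of the 7 genes named above, the values of 3 were picked out after they were seen. WNT9A was at 7.19 in 16-123, 10.1 in 16-131 and 17.3 in 17-254, in CPM, all above control, with a log2 fold change of 1.103 (SE 0.26, edgeR q = 0.117). LGR4 was at 48.1 in 16-123, 53.9 in 16-131 and 32.0 in 17-254, all below control, with a log2 fold change of -0.56 (SE 0.16, edgeR q = 0.179). PRICKLE2 was at 75.5 in 16-123, 78.8 in 16-131 and 76.9 in 17-254, between the controls and the lungs 4 h after the clinical drug and clear of both, with a log2 fold change of -0.45 (SE 0.087, edgeR q = 0.0523). PRICKLE2 passed the threshold on q and missed the one on fold. WNT9A was called by DESeq2 (1.09), without 16-123 (1.35) and without 16-131 (1.17), and LGR4 was called without 16-131 (-0.73). WNT9A was not called in the other 19 of 22 alternative settings, and LGR4 not in the other 21. Their values went down to 0.69 for WNT9A and to -0.37 for LGR4.

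Set directly against Beta-Ac at 6 h, the clinical drug at 4 h had more TLE4 and FRZB and less CCND1. These were 3 of 64 pathway genes, 4.69% beside 6.74% of all genes, and 11 had an unadjusted p under 0.05, beside 20.7% of all genes. TLE4 was at 50.1 in 16-123, 63.5 in 16-131 and 56.9 in 17-254 after Beta-Ac, in CPM, level with control and below all lungs of the clinical drug group (log2 fold change 1.07, SE 0.16, edgeR q = 0.00297). FRZB was at 21.4 in 16-123, 15.4 in 16-131 and 26.1 in 17-254 after Beta-Ac (log2 fold change 0.83, SE 0.25, edgeR q = 0.0454), and its call was lost without 15-97 (0.66) or 16-131 (0.65). CCND1 was at 120 in 16-123, 143 in 16-131 and 124 in 17-254 after Beta-Ac, between the other groups (log2 fold change -0.65, SE 0.18, edgeR q = 0.0381), and its call was lost without 15-81 (-0.49) or 16-131 (-0.57). With only these groups in the fit the FRZB (0.84, edgeR q = 0.113) and CCND1 (-0.65, edgeR q = 0.113) calls were both lost and the count was 1, and it was 9 without 15-81.

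At 5 days, none of the 64 pathway genes was called by edgeR in the lung. Against control, 0 were called after the clinical drug, beside 0% of all genes, with 2 at an unadjusted p under 0.05, beside 4.39%, and 0 by DESeq2, beside 16 genes. After Beta-Ac, 0 were called, beside 0.00567% of all genes, with 5 at an unadjusted p under 0.05, beside 6.42%, and 0 by DESeq2, beside 40 genes. Between the drugs at 5 days, 0 were called, beside 0% of all genes, with 3 at an unadjusted p under 0.05, beside 3.15%, and 0 by DESeq2, beside 8 genes. With so few calls over all genes, the counts of 0 say nothing particular to the pathway. TLE4 stood at 57.5 to 63.1 CPM 5 days after the clinical drug and at 47.7 to 53.6 CPM 5 days after Beta-Ac, and the control range overlapped both.

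The clinical drug at 4 h differed from the clinical drug at 5 days in 12 of 64 pathway genes, 5 higher and 7 lower, 18.8% beside 10.4% of all genes. The same lists and the same 4 h lungs were used, so nothing is read from that share. The count was 7 without 16-120. The higher genes included TLE4 (log2 fold change 1.01, SE 0.16, edgeR q = 0.00097) and FRZB (0.92, SE 0.25, edgeR q = 0.0198). They also included the ligands WNT9A (0.67, SE 0.26, edgeR q = 0.0799) and WNT9B (1.64, SE 0.66, edgeR q = 0.0912). WNT9B was at 2.20 in 15-81, 1.94 in 15-85 and 4.69 in 15-97 at 4 h and 1.29 in 16-115, 1.08 in 16-120 and 0.461 in 16-126 at 5 days, in CPM, a gap of levels with no overlap, on few reads. Its call was lost in 12 of 22 alternative settings. Among them were fits without 15-85 (1.84), 15-97 (1.13), 16-115 (1.91), 16-120 (1.75) or 16-126 (1.29), and without 15-101, 16-123, 16-128, 16-131 or 16-136 of the other groups (1.62 to 1.64). The WNT9A call was lost without 15-81 (0.63), 15-97 (0.52), 16-115 (0.67), 16-120 (0.69) or 16-126 (0.62), with no filter (0.65) and with Benjamini-Hochberg.

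Genes lower at 4 h than at 5 days after the clinical drug included CCND1 (log2 fold change -0.98, SE 0.18, edgeR q = 0.00304) and NKD1 (-0.91, SE 0.23, edgeR q = 0.0138). TCF7, a nuclear partner of beta-catenin, was at 12.0 in 15-81, 10.2 in 15-85 and 10.8 in 15-97 at 4 h and 22.4 in 16-115, 17.2 in 16-120 and 21.2 in 16-126 at 5 days, in CPM (log2 fold change -0.87, SE 0.19, edgeR q = 0.00693). PRICKLE1, a planar polarity gene, was at 51.8 in 15-81, 32.8 in 15-85 and 44.8 in 15-97 and 70.8 in 16-115, 81.0 in 16-120 and 67.9 in 16-126 (log2 fold change -0.76, SE 0.17, edgeR q = 0.00749). The lungs at 4 h were below all lungs at 5 days for each of these 4 genes. LGR4 (log2 fold change -0.60, SE 0.16, edgeR q = 0.0187) and PRICKLE2 (-0.66, SE 0.088, edgeR q = 0.000253), added after their values were seen, were also lower, and the LGR4 call was lost without 15-85 (-0.51) or 16-120 (-0.57). After Beta-Ac, edgeR called 0 of 64 between 6 h and 5 days, beside 0.261% of all genes, with 7 at an unadjusted p under 0.05, beside 7.91%. DESeq2 called 1 of the 64 and 185 of all genes there, and the edgeR count was 1 without 16-131. Over all genes the edgeR count there was 5 to 98 with 1 library left out.

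Marker genes of lung cell types differed between some groups. Alveolar type 2 markers (5 of 5 matched, SFTPC the most abundant, none at 0) summed to 7796, 7294 and 11158 CPM in controls and to 17947, 11773 and 15079 CPM at 4 h after the clinical drug, without overlap. Endothelial markers (4 of 5 matched, PECAM1 the most abundant, none at 0) summed to 2426, 2599 and 2498 CPM in controls and 1953, 1721 and 2392 CPM at 4 h, also without overlap. Fibroblast markers (4 of 5 matched, COL1A1 the most abundant, none at 0) summed to 5487, 4605 and 7216 CPM and 6452, 5298 and 5903 CPM and overlapped. At 6 h after Beta-Ac, alveolar type 2 markers summed to 14062, 9016 and 14066 CPM and endothelial markers to 2256, 2327 and 2275 CPM, the endothelial sums clear of control and the others not. At 5 days after Beta-Ac, as at 4 h after the clinical drug, both sums were clear of control, at 12261, 11425 and 13466 CPM for alveolar type 2 markers and 2019, 2126 and 1972 CPM for endothelial ones. Lymphatic endothelial markers (3 of 3 matched, FLT4 the most abundant, none at 0) summed to 134 to 136 CPM in controls. They were below that at 6 h after Beta-Ac (110 to 124 CPM), 5 days after Beta-Ac (114 to 128 CPM) and 5 days after the clinical drug (125 to 130 CPM), and overlapped it at 4 h. T cell markers (4 of 6 matched, IL7R the most abundant) summed to 56.7 to 60.7 CPM in controls. At 5 days after Beta-Ac they were below that, at 36.0 to 54.5 CPM, and in the other groups they overlapped control. Between the times after the clinical drug, alveolar type 1 markers (3 of 4 matched, AGER the most abundant) did not overlap. They summed to 1560 to 2322 CPM at 4 h and 1226 to 1448 CPM at 5 days. Mesothelial markers (3 of 4 matched, MSLN the most abundant) were just clear between these times, at 17.6 to 39.4 CPM at 4 h and 10.2 to 17.5 CPM at 5 days. Endothelial sums at 5 days, 2394 to 2539 CPM, were just above those at 4 h. Alveolar type 2 sums at 5 days, 8719 to 11794 CPM, overlapped those at 4 h. The part of these lists in the levels of FZD8, WNT7B, LEF1 and the pathway genes was not tested.

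In the hippocampus 5 days after treatment, the levels of the 6 genes overlapped between all groups and none was called. The plainest feature was the control CTL212, which was the highest of all 15 libraries for FZD8 and LEF1 and the lowest for WNT7B. Beside the lung, the hippocampus had WNT7B at 26.4 to 92.5 CPM and WIF1 at 25.6 to 105 CPM, and the lung had FZD8 at 12.9 to 34.1 CPM and LEF1 at 43.8 to 65.7 CPM, levels on separate scales with no test between them.

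**Figure D3:**
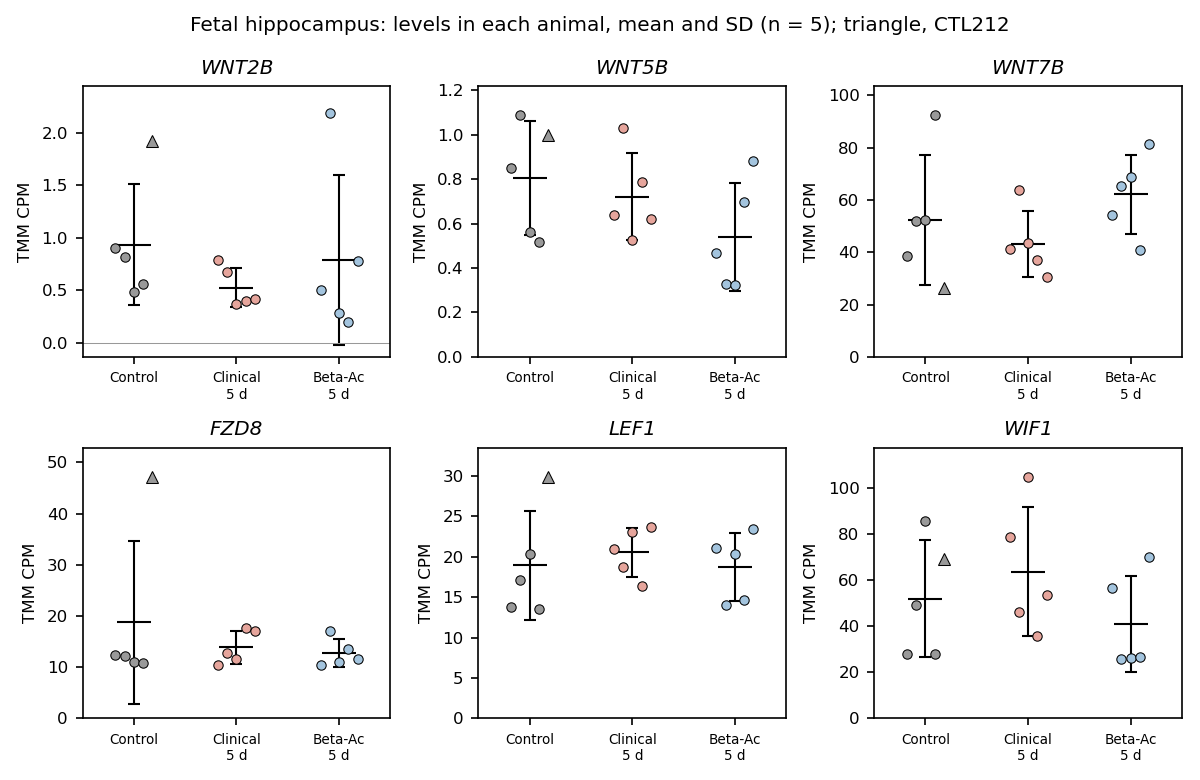
TMM CPM (vertical axis) of WNT2B, WNT5B, WNT7B, FZD8, LEF1 and WIF1 in each fetal hippocampus at 5 days, by group (horizontal axis). Points are animals (n = 5), the triangle is the control CTL212, long bars are means and whiskers are SD; CTL212 is the highest point for FZD8 (47.3 CPM).

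For the clinical drug against control, edgeR called 0 of the 6 genes, beside 7.86% of all genes, with 0 at an unadjusted p under 0.05 and 0 by DESeq2. For Beta-Ac against control, edgeR called 0 of 6, beside 0% of all genes, with 0 of the 6 at an unadjusted p under 0.05 and 0 by DESeq2. Between the drugs, edgeR called 0 of 6, beside 0% of all genes, again with 0 of the 6 at an unadjusted p under 0.05 and 0 by DESeq2. Without CTL212 the unadjusted count between the drugs was 1, WNT7B. Over all genes, 2133 for Beta-Ac against control and 2346 between the drugs had an unadjusted p under 0.05, and DESeq2 called 149 and 186. With 1 library left out, edgeR called 0 to 184 of all genes for Beta-Ac against control and 0 between the drugs. Both comparisons with control share the same 5 controls. Of these, CTL092, CTL101 and CTL209 came from sequencing runs that held controls alone, so run and treatment cannot be told apart for them. Within the 2 runs that held all groups, edgeR called 596 of all genes for the clinical drug against control, in place of 1366.

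WNT7B in the hippocampus was at 38.7 in CTL092, 52.0 in CTL101, 52.3 in CTL113, 92.5 in CTL209 and 26.4 in CTL212 in controls, in CPM. After the clinical drug it was at 41.3 in CEL115, 63.9 in CEL120, 43.4 in CEL126, 37.2 in CEL238 and 30.5 in CEL245. After Beta-Ac it was at 54.3 in BAC128, 65.2 in BAC130, 68.9 in BAC136, 40.9 in BAC235 and 81.2 in BAC237. The drug groups leaned apart, with 4 of the 5 clinical drug animals below 4 of the 5 Beta-Ac animals, yet they overlapped through CEL120 and BAC235. The log2 fold change between the drugs was -0.52 (SE 0.28, edgeR adjusted p = 0.427), and without CTL212 it was again -0.52 (SE 0.24, edgeR adjusted p = 0.314). Group means were 43.3 ± 12.6 CPM (clinical drug), 52.4 ± 24.9 (control) and 62.1 ± 15.3 (Beta-Ac), and all overlapped. Without CTL212 the control mean of WNT7B was 58.9 ± 23.3 CPM. Within the sequencing run that held 3 animals of each drug, the mean was 49.5 CPM after the clinical drug and 62.8 CPM after Beta-Ac, and in the run with 2 of each it was 33.8 and 61.1 CPM.

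FZD8 in the hippocampus was at 12.4 in CTL092, 12.2 in CTL101, 10.99 in CTL113, 10.8 in CTL209 and 47.3 in CTL212 in controls, in CPM. Animals given the clinical drug had 10.4 in CEL115, 12.7 in CEL120, 11.6 in CEL126, 17.6 in CEL238 and 17.1 in CEL245. Animals given Beta-Ac had 10.4 in BAC128, 17.0 in BAC130, 10.9 in BAC136, 13.6 in BAC235 and 11.6 in BAC237. Apart from CTL212, all 14 libraries lay between 10.4 and 17.6 CPM and the groups overlapped. The log2 fold change against control was -0.43 (SE 0.36, edgeR adjusted p = 0.448) for the clinical drug and -0.56 (SE 0.36, edgeR adjusted p = 0.555) for Beta-Ac. Without CTL212 the control mean went from 18.7 ± 16.0 to 11.6 ± 0.808 CPM, and the differences turned to 0.26 (SE 0.18, edgeR adjusted p = 0.357) and 0.13 (SE 0.18, edgeR adjusted p = 0.787). With the sequencing run as a block they were -0.88 and -0.95, and within the 2 runs that held all groups -0.85 and -0.91, where CTL212 was the only control of its run. Mean FZD8 was 13.9 ± 3.28 CPM after the clinical drug and 12.7 ± 2.69 CPM after Beta-Ac. CTL212 was also the library with choroid plexus markers, whose part in its FZD8 level was not tested.

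LEF1 in the hippocampus had means of 18.7 ± 4.17 CPM (Beta-Ac), 19.0 ± 6.73 (control) and 20.5 ± 3.03 (clinical drug), and CTL212 was the highest library at 29.9 CPM. Without CTL212 the control mean of LEF1 was 16.2 ± 3.19 CPM. The LEF1 log2 fold change against control then turned from -0.018 to 0.21 for Beta-Ac. For the clinical drug it went from 0.12 to 0.34, and neither was called. WIF1 had means of 40.9 ± 20.8 CPM (Beta-Ac), 51.9 ± 25.4 (control) and 63.6 ± 27.9 (clinical drug), with single animals from 25.6 CPM in BAC130 to 105 CPM in CEL126. Both genes overlapped between all groups. The low ligands WNT2B and WNT5B ranged from 0.193 to 2.18 CPM and from 0.324 to 1.09 CPM. WNT2B rested on 5 to 53 reads a library, so a small difference in it would not be detectable at this depth. Its means were 0.525 ± 0.190 CPM (clinical drug), 0.788 ± 0.813 (Beta-Ac) and 0.935 ± 0.578 (control), with BAC130 and CTL212 the highest animals. Without CTL212 the control mean of WNT2B was 0.689 ± 0.202 CPM, under that of Beta-Ac, and the log2 fold change of Beta-Ac against control turned from -0.25 (SE 0.55) to 0.20 (SE 0.55). The WNT5B means were 0.540 ± 0.243 CPM (Beta-Ac), 0.720 ± 0.196 (clinical drug) and 0.803 ± 0.257 (control), all overlapping.

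Of the 90 pathway genes, 74 were matched and 71 tested in the hippocampus. After the clinical drug, edgeR called 3 of the 71 lower than control and 0 higher, 4.23% beside 7.86% of all genes, and 20 had an unadjusted p under 0.05, beside 30.6% of all genes. TCF7 was at 3.70 in CTL092, 3.23 in CTL101, 2.21 in CTL113, 6.11 in CTL209 and 31.5 in CTL212 in controls, in CPM, and 3.34 in CEL115, 2.83 in CEL120, 3.81 in CEL126, 1.75 in CEL238 and 2.32 in CEL245 after the clinical drug. ROR2, a receptor of the branch without beta-catenin, was at 6.61 in CTL092, 5.64 in CTL101, 3.37 in CTL113, 6.39 in CTL209 and 22.7 in CTL212 and 3.73 in CEL115, 5.09 in CEL120, 3.36 in CEL126, 4.33 in CEL238 and 4.39 in CEL245. In both genes CTL212 was far above the other 4 controls, which overlapped the treated animals. The log2 fold changes were -1.73 for TCF7 (SE 0.60, edgeR adjusted p = 0.0689) and -1.10 for ROR2 (SE 0.42, edgeR adjusted p = 0.0924). Without CTL212 they were -0.44 for TCF7 (edgeR adjusted p = 0.385) and -0.40 for ROR2 (edgeR adjusted p = 0.355), and neither was called. The TCF7 call was also lost without any 1 of the 5 clinical drug animals, with values from -1.87 (without CEL126) to -1.60 (without CEL238). With the sequencing run as a block, the log2 fold change of TCF7 was -2.62 (edgeR adjusted p = 0.0681), where CTL212 was the only control of its run. The ROR2 call was lost in 15 of 25 alternative settings, among them the run as a term in the fit (-1.47, edgeR adjusted p = 0.115). It was also lost without CTL092 (-1.19), CTL209 (-1.18), BAC128 (-1.10) or BAC237 (-1.10), and without any 1 of the clinical drug animals (from -1.18 without CEL120 to -1.03 without CEL126).

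WNT10B, a canonical ligand, was at 13.2 in CTL092, 13.6 in CTL101, 7.78 in CTL113, 13.6 in CTL209 and 5.36 in CTL212 in controls, in CPM, and 5.80 in CEL115, 6.43 in CEL120, 7.33 in CEL126, 6.56 in CEL238 and 6.87 in CEL245 after the clinical drug. Controls CTL092, CTL101 and CTL209 were above every treated animal, CTL113 was just above them, and CTL212 was below all 5. The log2 fold change was -0.69 (SE 0.26, edgeR adjusted p = 0.0895), and -0.86 without CTL212 (edgeR adjusted p = 0.027). With the sequencing run as a term in the fit it was 0.0060 (edgeR adjusted p = 0.992), and within the 2 runs that held all groups it was 0.022 (edgeR adjusted p = 0.972). The 3 controls with the highest WNT10B came from runs that held controls alone, so run and treatment cannot be told apart for them. The call was also lost without CTL092 (-0.61), CTL101 (-0.59) or CTL209 (-0.58), without BAC136 (-0.69) or BAC237 (-0.69), and without any 1 of the 5 clinical drug animals (from -0.74 without CEL126 to -0.65 without CEL115).

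The count of 3 pathway genes in that comparison ranged from 0 (without CEL120 or CEL245) to 5 (without CTL113 or CTL212), and it was 1 without CTL092, CTL209, BAC237, CEL115 or CEL126. Beta-Ac against control gave 0 of 71 by edgeR, beside 0% of all genes, with 9 at an unadjusted p under 0.05, beside 12.3%, and 1 by DESeq2, and 2 by edgeR without BAC128. With 1 library left out, edgeR called 0 to 184 of all genes in that comparison. Between the drugs, 0 of 71 were called by edgeR, beside 0% of all genes, with 12 at an unadjusted p under 0.05, beside 13.5%, and 3 by DESeq2. Astrocyte markers (5 of 5 matched, SLC1A3 the most abundant, none at 0) summed to 2378 to 3569 CPM in controls, 3346 to 4536 CPM after the clinical drug and 2395 to 4308 CPM after Beta-Ac. Meningeal markers (5 of 5 matched, COL1A2 the most abundant) summed to 89.0 to 711 CPM in controls, 44.1 to 174 CPM after the clinical drug and 65.8 to 437 CPM after Beta-Ac. Both lists overlapped between control and the clinical drug, and 5 others did not. Cortical hem and Cajal-Retzius markers (3 of 4 matched, RELN the most abundant) summed to 421 to 658 CPM in controls, 198 to 338 CPM after the clinical drug and 267 to 606 CPM after Beta-Ac. Neural progenitor markers (2 of 5 matched, NES the most abundant, none at 0) summed to 149 to 241 CPM, 256 to 365 CPM and 133 to 299 CPM in the same groups. The other 3 lists were written for cells of the lung and other organs, and in the hippocampus the most abundant gene of each was PROX1 (of 3 matched, and also in the list for granule neurons), CALB2 (of 4) or ABCA3 (of 5), so they are not read as those cells. Their sums in controls and after the clinical drug were 26.9 to 50.3 and 58.2 to 73.4 CPM, 14.4 to 36.4 and 7.22 to 11.6 CPM, and 242 to 322 and 205 to 226 CPM. The part of any of these lists in the levels of TCF7, ROR2 and WNT10B was not tested.

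For each of the 6 genes, the 2 genes whose log2 CPM had the highest Pearson r with it over the 15 libraries of a tissue are named as a description, without a test. They were taken from 12345 lung and 12978 hippocampal genes with a symbol, and the libraries share groups, runs and depth. In lung, WNT2B was nearest to CD276 (r = 0.868) and ACTR1A (r = 0.853), WNT5B to AMMECR1 (r = 0.848) and IRS2 (r = 0.809), and WNT7B to ABCB9 (r = 0.924) and HPGDS (r = 0.910). Lung FZD8 was nearest to EHMT2 (r = 0.933) and FGF13 (r = 0.929), LEF1 to CLASP2 (r = 0.857) and ORC2 (r = 0.834), and WIF1 to DYDC2 (r = 0.806) and STK33 (r = 0.800). In hippocampus, WNT2B was nearest to C7 (r = 0.889) and DSP (r = 0.887), WNT5B to KDM6B (r = 0.816) and CRACDL (r = 0.809), and WNT7B to NRSN2 (r = 0.899) and FOSL2 (r = 0.882). Hippocampal FZD8 was nearest to SLC5A6 (r = 0.921) and VASN (r = 0.915), LEF1 to MSN (r = 0.908) and S1PR3 (r = 0.886), and WIF1 to CECR2 (r = 0.837) and PTPRH (r = 0.828). Without CTL212, a setting chosen after seeing the data, r for FZD8 was 0.550 with SLC5A6 and 0.681 with VASN, and for LEF1 it was 0.878 with MSN and 0.863 with S1PR3. For the other 4 genes r ran from 0.799 to 0.886 in that setting. No gene was named for the same member in both tissues.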

How the data were processed

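Per the labels, the authors aligned lung reads with Bowtie 1.2.1.1 and counted them with featureCounts 1.5.1, and for the hippocampus (75 bp paired-end reads of poly(A) RNA) the submitters name Bowtie2, featureCounts and edgeR without versions. The authors deposited raw counts per Ensembl gene for both tissues, and no strand setting is given in the sources used here. From these counts, everything else was computed separately for each tissue in R 4.3.3 with edgeR 4.0.16 (limma 3.58.1): TMM factors, CPM, a quasi-likelihood F-test with group as the only term, a prior count of 0.125 for fold changes and of 2 for log2 CPM. DESeq2 1.42.0 was an alternative with the same thresholds. SE is the absolute log2 fold change divided by the square root of F. Symbols came from the Ensembl rhesus annotation names supplied with the series and were found for 52.1% of lung and 54.4% of hippocampal identifiers. The code was tested on simulated data before use.

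Genes and lists were chosen with earlier results of these data known. The genes named are the 10 chosen ones, at most 4 higher and 4 lower pathway genes called per comparison, by absolute log2 fold change, and the 2 genes closest in pattern to each chosen one. WNT9A, LGR4 and PRICKLE2 at 6 h, and LGR4 and PRICKLE2 between the times after the clinical drug, were added after their values were seen.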

Additional observations from a re-analysis of the deposited data

Results flagged for a closer look

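In groups of 5 the gap between the highest or lowest animal and its nearest neighbour, divided by the range of the group, was compared with the 95% critical value of Dixon's test, which chance passes in about 1 of 20 groups. Of 27 gene and group pairs compared, 3 passed it, all in the hippocampal controls through CTL212, for FZD8 (47.3 CPM), TCF7 (31.5 CPM) and ROR2 (22.7 CPM). TCF7 and ROR2 were compared because they were called against control, calls that were lost without CTL212, so nothing is read from their passing. The same library held the highest choroid plexus and meningeal marker sums, and the part of those in the 3 levels was not tested.

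Lungs taken 4 h and 5 days after the clinical drug differed, by the direct edgeR test between the times, in 12 of the genes named in the text, beside 10.4% of all genes. Of these, 8 pathway genes were named because this same comparison called them, LGR4 and PRICKLE2 were added after their values were seen, and FZD8 and WNT7B were chosen with the 4 h lungs in view, so nothing is read from the number. As log2 fold changes of 4 h against 5 days, these were WNT7B at -0.93, FZD8 at -0.95, TCF7 at -0.87, NKD1 at -0.91, CCND1 at -0.98, PRICKLE1 at -0.76, LGR4 at -0.60 and PRICKLE2 at -0.66 on the lower side. On the higher side were WNT9A at 0.67, WNT9B at 1.64, FRZB at 0.92 and TLE4 at 1.01. Lung labels of the 3 controls give no interval, while the hippocampal labels of these animals give 5 days. The direct test between the times does not use the controls. In these lungs the interval after injection and the time of sampling cannot be told apart. Animal numbers begin with 15 at 4 h and with 16 at 5 days, a split that cannot be told apart from the interval.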

How the results depend on the processing

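Counts of the 6 chosen genes called kept within 1.5 times the reported count in 234 of the recomputed settings and left it in 17. The 234 include comparisons with a reported count of 0, where a count that stayed at 0 was taken as kept. A fall from 3 to 2 was also taken as kept, so the 234 is no measure of how stable the calls were. For the clinical drug at 4 h against control the count went from 3 to 1 with only the 2 groups compared in the fit, and ran from 1 to 3 when 1 library was left out. Against Beta-Ac at 6 h it went from 1 to 0 with no filter, with Benjamini-Hochberg in place of Storey, and with only the 2 groups compared, and ran from 0 to 2 with 1 library left out. Against 5 days it went from 2 to 1 with no filter and ran from 1 to 2.

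Counts of pathway genes kept within that limit in 224 settings and left it in 27, and counts that stayed at 0 were again taken as kept. With no fold threshold they were 1 (Beta-Ac at 6 h against control, reported 0), 5 (clinical drug at 4 h against Beta-Ac at 6 h, reported 3) and 14 (hippocampus, clinical drug against control, reported 3). With DESeq2 they were 2 (Beta-Ac at 6 h against control), 1 (Beta-Ac at 6 h against 5 days), 1 (hippocampus, Beta-Ac against control) and 3 (hippocampus, between the drugs), each reported as 0 by edgeR. With only the 2 groups compared, the early comparison between the drugs gave 1. The hippocampal count of 3 was 1 with no filter, 6 with Storey and 6 with the run as a block, and between the hippocampal drug groups the run as a block gave 1 in place of 0. With 1 library left out the counts ran from 0 to 4 (Beta-Ac at 6 h against control), 3 to 9 (early, between the drugs), 7 to 14 (clinical drug, 4 h against 5 days), 0 to 1 (Beta-Ac, 6 h against 5 days), 0 to 5 (hippocampus, clinical drug against control) and 0 to 2 (hippocampus, Beta-Ac against control).

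Of the log2 fold changes tested, 49 were recomputed, in 1099 settings. They were those of the pathway genes named where called, of the 6 chosen genes where called or with p under 0.1, of FZD8 throughout, and 5 added after their values were seen. In these settings 982 kept direction and call, 98 lost the call, 7 gained it and 12 turned direction. FZD8 at 5 days in the lung turned to -0.010 (without 16-113) and -0.018 (without 16-120) for the clinical drug, to 0.087 (without 15-92) and 0.16 (without 16-130) for Beta-Ac, and to -0.00032 (without 16-120) and -0.10 (without 16-130) between the drugs. With 1 library left out these 3 ran from -0.018 to 0.16, from -0.11 to 0.16 and from -0.10 to 0.17. Hippocampal FZD8 turned to 0.26 without CTL212 for the clinical drug and to 0.13 for Beta-Ac, the highest values with 1 library left out, and the lowest of those were -0.57 and -0.70, both without CTL113. The lowest of all were -0.88 and -0.95, with the run as a block. Without the 3 libraries that stand apart (CTL212, CTL092 and BAC235), a setting chosen after seeing the data, these were 0.29 and 0.14, TCF7 was -0.45, ROR2 was -0.30, and the hippocampal pathway count was 2. WNT10B turned to 0.0060 with the run as a block and 0.022 within the 2 runs. Of the calls in lung, those lost with only the 2 groups compared were WNT5B (0.83), WNT7B (-1.05) and NKD1 (-0.81) for the clinical drug at 4 h against control, and WNT7B (-0.92), FRZB (0.84) and CCND1 (-0.65) against Beta-Ac at 6 h. With no filter or with Benjamini-Hochberg the same happened to WNT5B against control, WNT7B against Beta-Ac at 6 h, and WNT9A and WNT9B against 5 days, and with no filter to WNT7B against 5 days (-0.94). In the hippocampus it happened to WNT10B (-0.70) and ROR2 (-1.102) with no filter, and to ROR2 with only the 2 groups compared (-1.098) and within the 2 runs (-1.44). The causes of these changes were not tested. No paired analysis was possible between the groups of a tissue, because they hold different animals. The 9 fetuses that gave both tissues were not analysed as pairs, since no test was run between lung and hippocampus. The search of promoters for motifs was not run. Reads limit what can be detected in WNT2B and WNT5B, with as few as 5 and 7 reads in a hippocampal library, and in WNT9B, with 4 there and 6 in a lung.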
